A study of Mus musculus with 4 samples.

Results

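The genes described here carry the ACTH signal into the adrenal cortical cell: the receptor Mc2r and its accessory protein Mrap, the stimulatory G protein gene Gnas, the adenylyl cyclases Adcy6 and Adcy9, the protein kinase A subunits Prkaca, Prkacb, Prkar1a and Prkar2b, and the phosphodiesterase Pde8a. They are 10 of the 18193 genes named on the array, and they were chosen by name, with earlier results of these data known. All probe sets annotated to exactly 1 of them were taken, which gave 26 of 45037 probe sets. Testing needed a value of 4 log2 units or more on any 2 arrays. By that filter 18 of the 26 were tested, covering all 10 genes, and the other 8 are accounted for below.

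RNA came from adrenal glands of male mice aged 2 months, wild type or with a knockout of the V1a vasopressin receptor, and was read on Affymetrix Mouse Genome 430 2.0 arrays, 2 arrays per genotype. The labels name no treatment. The strain, the allele, the part of the receptor gene that was removed and whether glands were pooled were not given in the sources used here. Whether the 2 arrays of a genotype stand for different animals is not in the labels either, and the p-values speak only of the spread among the arrays, which may be technical.

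ACTH from the pituitary binds the melanocortin 2 receptor, which reaches the cell surface only with the help of its accessory protein. The receptor acts through the stimulatory G protein on adenylyl cyclase, and the cyclic AMP formed there binds the regulatory subunits of protein kinase A and frees its catalytic subunits. The kinase then drives steroid synthesis, in part through the transcription factor CREB, and phosphodiesterases end the signal by breaking cyclic AMP down. V1a couples to a different route, Gq and calcium, and the comparison asked whether the ACTH route differed at the RNA level when that receptor was missing.

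CREB binds the cyclic AMP response element, TGACGTCA, and its shorter form TGACG, and RefSeq promoter windows of the mouse assembly GRCm38.p6 (250 bases before to 50 after a transcript start) were searched for both on both strands. The full element contains the short one. Windows were matched for 7 of the 10 genes, 19 windows in all, some of them overlapping; Mc2r, Mrap and Adcy6 were not matched. The full element was present in 2 of the 19, both of Prkar1a and both holding the same copy, against 1.79% of all 32851 windows. The short form was present in 10 of the 19 windows, from 6 genes, against 20.8% of all windows, and Prkar2b was the matched gene without it. Another motif, AAGGTCA, the half-site of the steroidogenic factor Nr5a1, was in 0 of the 19 and in 4.72% of all windows. Shown here, 5′ to 3′ on the strand of the gene, are 30 bases around 1 match for each of the 3 genes that have a match and a tested probe set on which the genotypes did not overlap, with the match in capitals.
Prkar1a: gcgaggcgcatTGACGTCAgcagccgaacg
Prkaca: gtctgcaactcgCGTCActcatccaggagc
Adcy9: cggacccggcggTGACGtgcgcgggccgcg
The Prkar1a stretch lies at chr11:109650889-109650918 on the plus strand, where the element begins 49 bases before 1 annotated start and 38 bases after another. That of Prkaca is at chr8:83972846-83972875 on the plus strand, 120 bases before the start, and shows the short form on the opposite strand, CGTCA. The Adcy9 stretch is at chr16:4420505-4420534 on the minus strand, 24 bases before the start. These matches describe the letters of the windows and are no measure of binding.

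Before the values of the pathway, the arrays themselves need describing. The targeted gene Avpr1a read 2.31 to 2.60 on all arrays over its 2 probe sets, at the floor of the scale, so it does not check the genotype labels. Cortical tissue was present on every array: all 7 cortical markers were tested, with a mean of 13.32 and 13.28 log2 units on the wild-type arrays against 13.22 and 13.19 on the knockout arrays. Wild-type array 1 stood apart. Across tested probe sets it correlated with the other 3 arrays at 0.919 to 0.924, while those correlated with each other at 0.974 to 0.986. It also carried liver transcripts: albumin (Alb) read 8.86 there and 2.42, 2.43 and 2.43 on wild-type array 2 and knockout arrays 1 and 2, Ttr read 8.95 against 2.30, 2.76 and 2.88, and Apoa1 6.88 against 2.51, 2.51 and 2.48. Fat markers varied too. Of 7 adipocyte markers 4 were tested, with a mean of 8.68 and 8.10 on the wild-type arrays against 7.52 and 9.51 in the knockout, and Lep was at the floor of 2.30 throughout. Of 4 brown fat markers 3 were tested, with a mean of 9.40 and 7.07 against 4.56 and 6.57. Ucp1 and Cidea were lower on both knockout arrays. The third, Cox7a1, overlapped, at 8.37 and 7.18 in wild type against 7.51 and 7.73 in the knockout. Ucp1, the uncoupling protein of brown fat, was at 10.05 and 7.24 in wild type against 2.80 and 5.91 in the knockout, and Adipoq was at 9.60 and 8.84 in wild type against 7.76 and 10.16 in the knockout. Control probe sets for the 2 ends of the Actb transcript differed, 3′ minus 5′, by 2.12 and 2.46 log2 units in wild type and by 2.19 and 2.63 in the knockout, so the genotypes overlapped in this measure of RNA integrity. Medullary markers, 6 of 6 tested, had a mean of 12.38 and 11.56 in wild type against 12.19 and 11.32 in the knockout. The part of these differences in the results below was not tested, and differences are given with and without wild-type array 1. In whole glands, fewer cells of a type and less RNA per cell cannot be told apart.

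**Figure D1:**
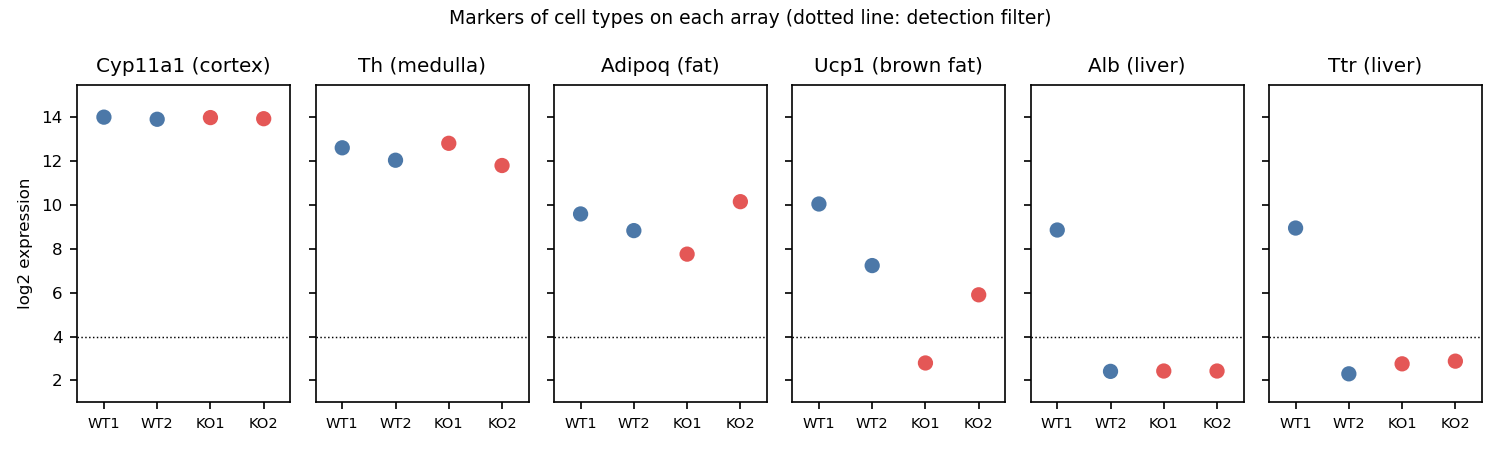
Log2 expression (y axis) of 6 cell type markers on each of the 4 arrays (WT1, WT2, KO1, KO2); each point is 1 array and the dotted line marks the filter of 4 log2 units. Cyp11a1 is level across arrays, while Alb and Ttr are read only on wild-type array 1 and Ucp1 is highest there.

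No probe set of the pathway passed the adjusted threshold. Over all 17228 tested probe sets, 0 (0%) had an adjusted p under 0.05 in limma, the linear model used for every test here, with Benjamini-Hochberg adjustment across the whole table. For the 18 probe sets of the pathway the adjusted p lay between 0.794 and 0.953. At an unadjusted p under 0.05, 1 of the 18 (5.56%) was called, a probe set of Prkaca that was lower in the knockout, and 5.14% of all tested probe sets were called at that level, 2.13% higher and 3.01% lower. The share in the pathway was therefore near the background. The 2 knockout arrays lay wholly above or below the 2 wild-type arrays on 10 of the 18 probe sets (55.6%), 7 higher (38.9%) and 3 lower (16.7%), beside 37.4% of all tested probe sets, 17.4% higher and 20.0% lower. Of the 7 that lay higher, 3 are probe sets of Prkar2b and 2 of Adcy9, and probe sets of 1 gene are not independent. With 1 probe set per gene, 5 of the 10 genes did not overlap, against 37.7% of the 10110 tested genes. In counts by gene 1447720_x_at stands for Prkaca and 1452032_at for Prkar1a, both higher in the knockout. The called Prkaca probe set, which was lower, is not in them.

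Wild-type array 1 held either the highest or the lowest value on all 18 tested probe sets of the pathway, the highest on 10 and the lowest on 8; over all tested probe sets it was at one end on 73.9%. The median gap between the 2 wild-type arrays was 0.60 log2 units on these 18 probe sets, and that between the knockout arrays 0.18 (0.44 and 0.15 over all tested probe sets). Many of the differences below were thus within the spread of the wild-type pair.

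**Figure D2:**
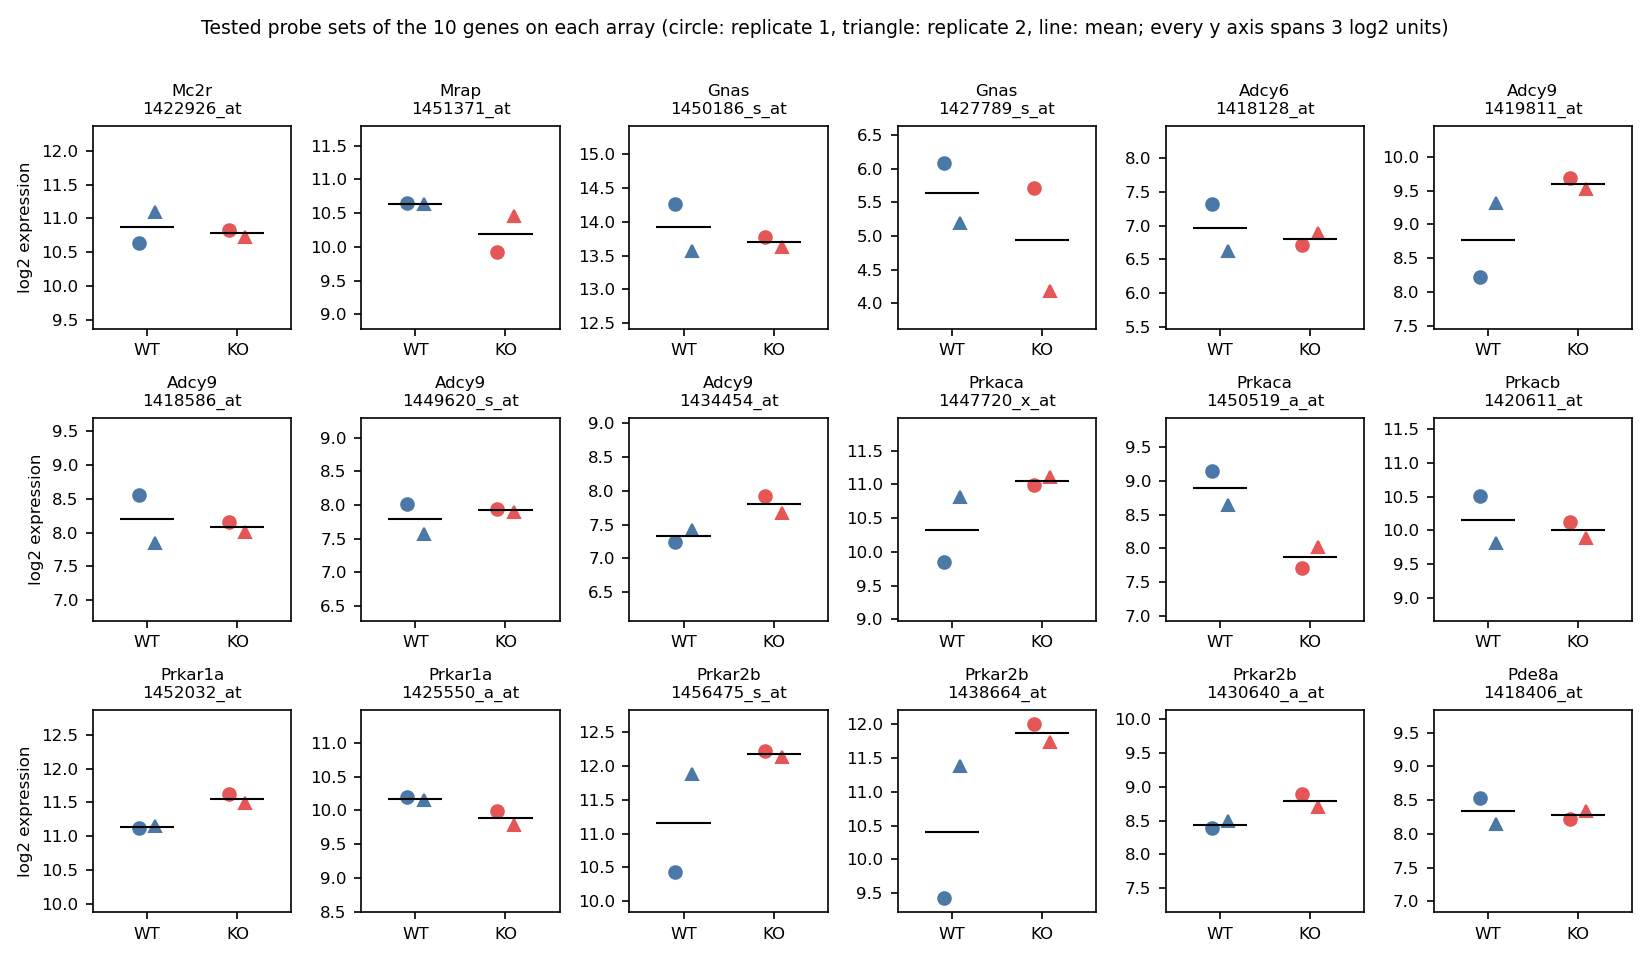
Log2 expression (y axis, each spanning 3 units) of the 18 tested probe sets of the 10 genes in wild type (blue) and knockout (red); circles are replicate 1, triangles replicate 2 and lines the mean of 2 arrays. All 3 Prkar2b probe sets are higher on both knockout arrays, while the 2 probe sets of Prkaca, and the 2 of Prkar1a, lie on opposite sides.

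The receptor was read strongly in both genotypes. Mc2r, the ACTH receptor, read 10.63 and 11.10 on the wild-type arrays against 10.83 and 10.72 on the knockout arrays. Both knockout arrays thus fell between the 2 wild-type arrays. The means were 10.87 ± 0.33 (SD, n = 2) and 10.78 ± 0.08, a difference of -0.09 (SE 0.23, 95% interval -0.75 to 0.58, limma adjusted p = 0.924). The interval allows differences of over 0.5 log2 units in either direction. Without wild-type array 1 the difference was -0.32, and without wild-type array 2 it was 0.14, so its sign rested on which wild-type array was used.

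Mrap, the accessory protein that carries the receptor to the membrane, read 10.65 and 10.63 in wild type against 9.93 and 10.46 in the knockout. Both knockout arrays were lower than both wild-type arrays, but knockout array 1 lay further from knockout array 2 than that array did from wild type. The difference was -0.45 (SE 0.25, 95% interval -1.16 to 0.26, adjusted p = 0.794 in limma). It was -0.44 without wild-type array 1, -0.18 without knockout array 1 and -0.71 without knockout array 2. Fat cells also express Mrap, and knockout array 1 was the array with the lowest Adipoq and Ucp1. Knockout array 2, with Mrap also below both wild-type arrays, had the highest Adipoq (10.16) and a Ucp1 (5.91) below both wild-type arrays. The part of fat in the Mrap difference was not tested. The second probe set of Mrap stayed at the floor, 2.30, on every array and was not tested. Of the other melanocortin receptors and the second accessory protein, Mc1r, Mc3r, Mc5r and Mrap2 were on the array and read at most 2.74, below the filter.

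Gnas encodes the stimulatory G protein alpha subunit, from an imprinted locus that also gives other transcripts. Its brightest probe set, 1450186_s_at, read 14.27 and 13.57 in wild type against 13.78 and 13.63 in the knockout, for a difference of -0.22 (SE 0.30). Here the knockout arrays again lay between the wild-type arrays, and the difference was 0.13 without wild-type array 1. These readings are near the top of the scale, whose highest value was 14.9, where differences can be compressed. A dimmer probe set, 1427789_s_at, read 6.08 and 5.19 in wild type against 5.71 and 4.18 in the knockout, for a difference of -0.69 (SE 0.66, adjusted p = 0.799 in limma). The knockout arrays differed from each other by 1.53, more than the genotypes did. Without knockout array 2 the difference was 0.07, and without wild-type array 1 it was -0.25. The other 3 probe sets of Gnas read 2.30 to 2.68 and were not tested.

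Of the cyclases, which make cyclic AMP, Adcy6 had 1 probe set, at 7.33 and 6.62 in wild type against 6.72 and 6.90 in the knockout. It differed by -0.17 (SE 0.31), with overlapping genotypes, and by 0.18 without wild-type array 1. Adcy9 had 4 tested probe sets, and they did not go together. The highest in mean, 1419811_at, read 8.22 and 9.32 in wild type against 9.69 and 9.52 in the knockout, which put both knockout arrays above, a difference of 0.83 (SE 0.44). Most of that came from wild-type array 1, and without it the difference was 0.28. Probe set 1434454_at read 7.24 and 7.42 in wild type against 7.92 and 7.68 in the knockout, for a difference of 0.47 (SE 0.19, unadjusted p = 0.0733, adjusted p = 0.794 in limma). This one changed less, to 0.38, without wild-type array 1. On the remaining pair, 1418586_at and 1449620_s_at, the genotypes overlapped, with differences of -0.12 (SE 0.31) and 0.13 (SE 0.22). Wild-type array 1 was the lowest array on the first 2 probe sets of Adcy9 and the highest on the other 2, lying from 1.29 below to 0.55 above the mean of the other arrays. Without it all 4 lay higher in the knockout, by 0.23 to 0.38, each against wild-type array 2 alone.

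The catalytic subunit gene Prkaca held the 1 probe set below an unadjusted p of 0.05, and its probe sets disagreed. Probe set 1450519_a_at read 9.15 and 8.64 in wild type against 7.71 and 8.02 in the knockout. Both knockout arrays were lower, by more than either genotype's own gap. The means were 8.89 ± 0.36 and 7.87 ± 0.22 (SD, n = 2), a difference of -1.03 (SE 0.27, 2.04-fold, 95% interval -1.79 to -0.26), with an unadjusted p of 0.0208 and an adjusted p of 0.794 in limma. The difference was -0.77 without wild-type array 1, -1.28 without wild-type array 2, -0.87 without knockout array 1 and -1.18 without knockout array 2. The unadjusted call was kept without wild-type array 2 and lost in the other settings. Over all probe sets, calls were also fewer without knockout array 1 or 2. The other probe set, 1447720_x_at, read 9.86 and 10.81 in wild type against 10.99 and 11.11 in the knockout. It lay on the opposite side, with a difference of 0.72 (SE 0.38), which shrank to 0.24 without wild-type array 1. The suffix _x_at marks a probe set whose probes may also match other transcripts, and _a_at one that matches several transcripts of 1 gene. The 2 probe sets thus need not measure the same RNA, and Prkaca as a gene has no single direction here.

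Prkacb, the second catalytic subunit, read 10.51 and 9.82 in wild type against 10.13 and 9.89 in the knockout. The genotypes overlapped, and the difference was -0.16 (SE 0.31), or 0.19 without wild-type array 1. Its other 2 probe sets read 2.30 to 2.99 and were not tested.

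Prkar1a encodes the type I regulatory subunit, which holds the catalytic subunits inactive until cyclic AMP binds; inactivating mutations in the human gene cause a nodular adrenal disease with cortisol excess. Probe set 1452032_at read 11.12 and 11.16 in wild type against 11.62 and 11.49 in the knockout. The pairs were tight and did not overlap, with means of 11.14 ± 0.03 and 11.55 ± 0.09 (SD, n = 2). The difference was 0.42 (SE 0.16, 1.34-fold, 95% interval -0.04 to 0.88), with an unadjusted p of 0.0652 and an adjusted p of 0.794 in limma. Leaving out each of the arrays moved it between 0.35 and 0.48. Probe set 1425550_a_at of the same gene lay the other way, at 10.19 and 10.15 in wild type against 9.995 and 9.78 in the knockout, for a difference of -0.28 (SE 0.17). As in Prkaca, the 2 probe sets did not overlap between genotypes and had opposite signs, but here the wild-type arrays were alike on both, and without wild-type array 1 the differences were 0.40 and -0.27. The third probe set stayed at 2.34.

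Prkar2b encodes the type II beta regulatory subunit, and on each of its 3 probe sets both knockout arrays were higher than both wild-type arrays. Probe set 1456475_s_at read 10.44 and 11.88 in wild type against 12.23 and 12.14 in the knockout. Probe set 1438664_at, annotated to the same source sequence, read 9.42 and 11.39 in wild type against 12.01 and 11.74 in the knockout. On both, the knockout arrays were close together and wild-type array 1 lay far below the rest. The differences were 1.03 (SE 0.55, 2.04-fold) and 1.47 (SE 0.74, 2.77-fold), with an adjusted p of 0.794 for each in limma. Without wild-type array 1 they came down to 0.30 and 0.48, and without wild-type array 2 they rose to 1.75 and 2.45. The third probe set, 1430640_a_at, read 8.39 and 8.50 in wild type against 8.89 and 8.70 in the knockout, for a difference of 0.35 (SE 0.17, unadjusted p = 0.120 in limma). There wild-type array 1 was within 0.11 of wild-type array 2, and the difference without it was 0.30. The 3 probe sets thus gave 0.30 to 0.48 against wild-type array 2 alone, a narrower range than the 0.35 to 1.47 on all arrays. Prkar2b is also expressed in fat, where Adipoq was highest on knockout array 2 and lowest on knockout array 1, while the Prkar2b probe sets differed between those arrays by 0.09 to 0.27, with knockout array 1 the higher; the part of fat in the Prkar2b differences was not tested.

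Pde8a, a phosphodiesterase with high affinity for cyclic AMP that restrains steroid output, read 8.53 and 8.14 in wild type against 8.22 and 8.34 in the knockout. The knockout arrays fell within the wild-type range, with a difference of -0.05 (SE 0.21, 95% interval -0.67 to 0.56), or 0.14 without wild-type array 1. Its second probe set read 2.31 to 2.35 and was not tested.

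**Figure D3:**
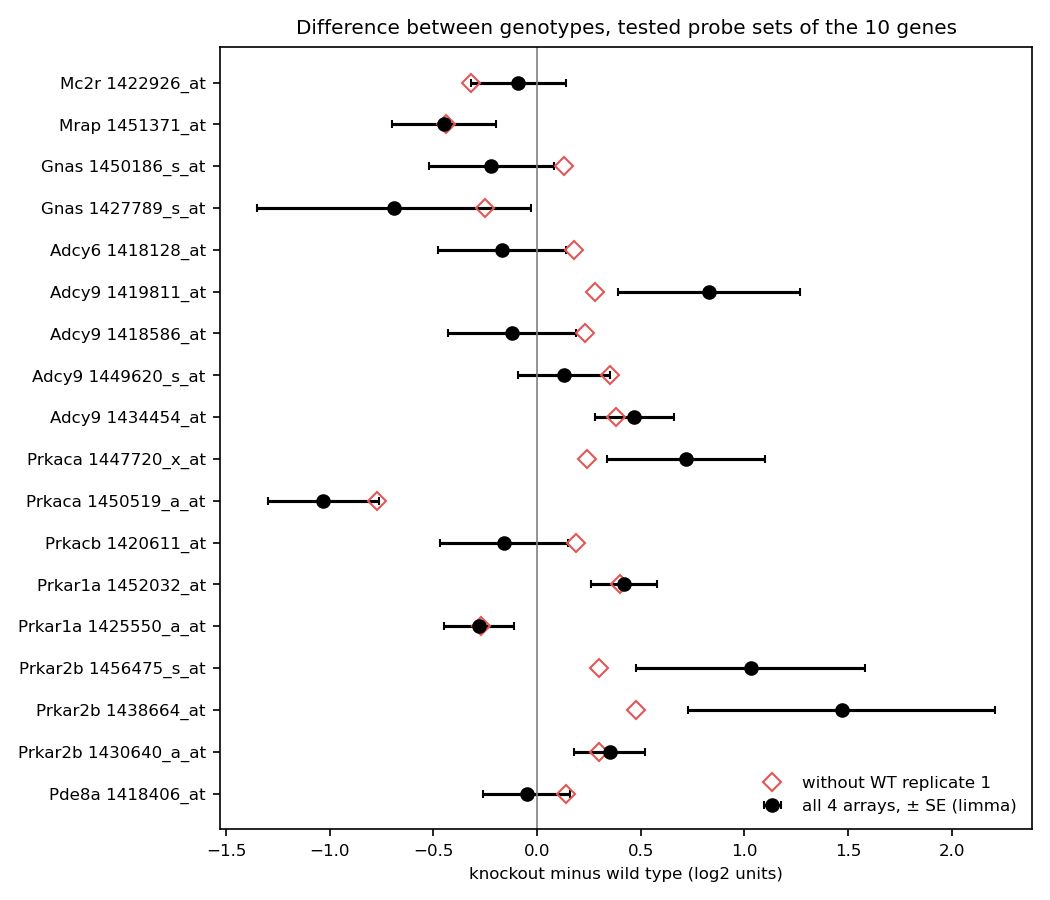
Knockout minus wild type in log2 units (x axis) for the 18 tested probe sets; black points with bars are the difference on all 4 arrays ± limma's moderated SE, and open diamonds are the difference without wild-type array 1. The Prkar2b differences of 1.03 and 1.47 come down to 0.30 and 0.48, while those of Prkar1a and Mrap hardly move.

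The rest of the pathway lay close to the median of all genes. Of 77 further genes of ACTH and cyclic AMP signalling, 71 had a probe set naming them alone and 54 were tested. Of the 54, 26 were above wild type in the knockout and 28 below, around a median of -0.01, beside -0.05 over all tested genes. For the 10 genes above, with 1 probe set each, the median was -0.07. Without wild-type array 1 these medians were 0.07 for the 54 genes, 0.04 for all tested genes and 0.19 for the 10. Unadjusted p was under 0.05 in limma for 2 of the 54 (3.70%), both lower, against 5.06% of all tested genes, and 0 passed the adjusted threshold. The genotypes did not overlap in 14 of the 54 (25.9%), 5 higher and 9 lower, against 37.7% of all tested genes.

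Those 2 genes restrain or place the kinase, and the values are from the probe set with the highest mean. Pkig had 2 tested probe sets, and the other is not given here. Pkig, an inhibitor that binds free catalytic subunits, read 10.02 and 9.89 in wild type against 9.26 and 9.33 in the knockout, for a difference of -0.66 (SE 0.16, unadjusted p = 0.0175, adjusted p = 0.794 in limma). Each knockout array was lower than each wild-type array by more than the gap within either pair, and the difference without wild-type array 1 was -0.60. It was -0.73 without wild-type array 2, -0.63 without knockout array 1 and -0.69 without knockout array 2. The unadjusted call on Pkig was kept without wild-type array 1 or 2 and lost without knockout array 1 or 2. Sphkap, an anchoring protein that binds type I kinase, read 7.41 and 7.08 in wild type against 6.60 and 6.71 in the knockout, for a difference of -0.59 (SE 0.20, unadjusted p = 0.0446, adjusted p = 0.794 in limma). The Sphkap difference was -0.43 without wild-type array 1, -0.76 without wild-type array 2, -0.54 without knockout array 1 and -0.65 without knockout array 2. Its unadjusted call was likewise kept without wild-type array 1 or 2 and lost without knockout array 1 or 2. Over the group of other kinase subunits and inhibitors, 1 of 5 tested genes lay higher and 4 lower, and over the anchoring proteins 6 of 10 lay higher and 4 lower.

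In the groups without a call, the gene with the smallest p is given. Gnai1 had 2 tested probe sets and Pde10a 3, and only the one with the highest mean is given. Gnai1, an inhibitory G protein subunit, read 6.93 and 8.13 in wild type against 5.60 and 6.47 in the knockout, for a difference of -1.50 (SE 0.56, unadjusted p = 0.0607 in limma), and G proteins and receptor regulators had a median of -0.17 over 7 genes. Adcy1 differed by -0.45 (SE 0.27), and the other cyclases had a median of -0.17 over 4 genes. Among phosphodiesterases, 7 of 9 lay higher with a median of 0.14, and Pde10a read 4.75 and 7.21 in wild type against 6.50 and 9.01 in the knockout, with overlapping genotypes and a difference of 1.78 (SE 1.29). Ep300, a coactivator of CREB, differed by 0.39 (SE 0.22), and the CREB group had a median of 0.01 over 8 genes. The list of ACTH target genes had a median of -0.12 over 11 genes, with 4 higher and 7 lower, and Nr5a1, the transcription factor of the steroidogenic cell, differed by -0.37 (SE 0.20). The medians depended on single arrays. Without wild-type array 1 they were 0.11 for G proteins and receptor regulators, 0.03 for cyclases, 0.31 for phosphodiesterases, 0.24 for the CREB group and -0.02 for ACTH targets. Without wild-type array 2 they were -0.37, -0.52, -0.05, -0.08 and -0.27. Against wild-type array 2 alone, Gnai1, Adcy1, Pde10a, Ep300 and Nr5a1 differed by -2.10, -0.15, 0.55, 0.18 and -0.24.

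**Figure D4:**
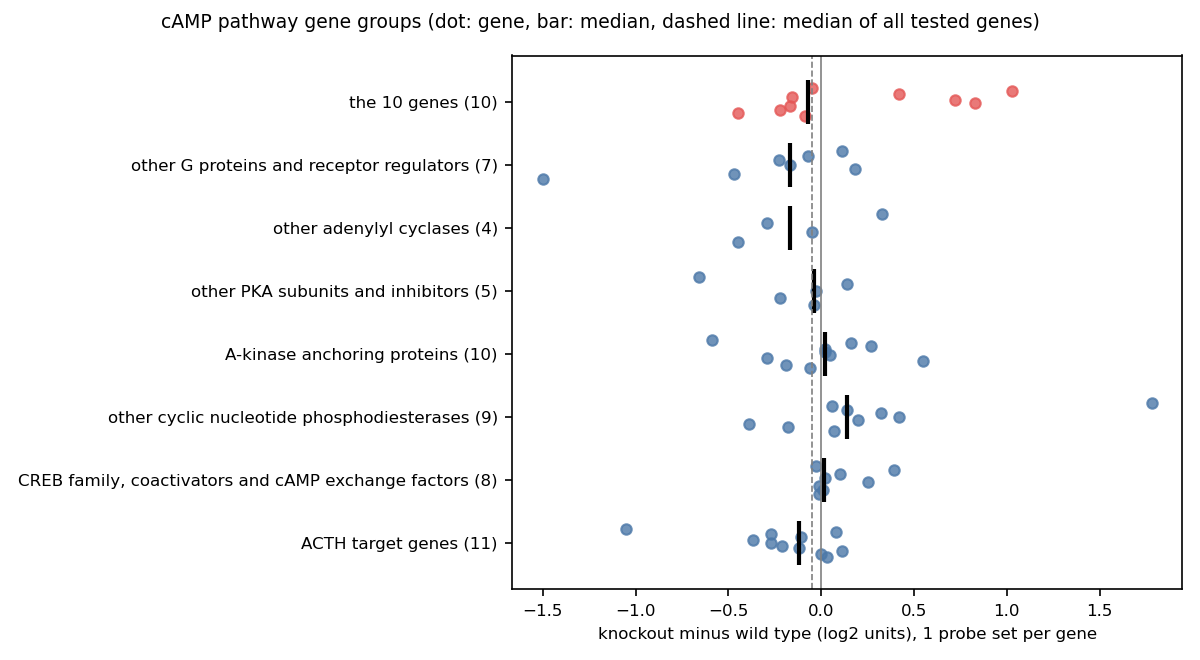
Knockout minus wild type in log2 units (x axis) for each tested gene of 8 pathway groups, 1 probe set per gene; dots are genes, bars group medians, and the number of genes is in brackets. Group medians on all 4 arrays lie between -0.17 and 0.14, near the dashed median of all tested genes at -0.05.

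Genes with the most similar course over the 4 arrays were sought for the receptor and its accessory protein, by the root mean square difference after centring each gene on its own mean. For Mc2r the closest of 10109 genes were Fam136a at 0.0207 log2 units, Otud6b at 0.0280 and 1600012H06Rik at 0.0293, where the median over all genes was 0.338. The closest to Mrap were Cilp at 0.0272, Sh3d21 at 0.0276 and 2210408K08Rik at 0.0311, with a median of 0.356. No test goes with these distances, which rest on 4 arrays and are the smallest of many.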

How the data were processed

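The authors deposited 1 log2 expression value per probe set and array, computed from the array scans with gcRMA in Bioconductor 3.14, per the labels' protocols. The log2 scale was read from the values (2.30 to 14.9). The version of gcRMA is not given in the sources used here. Values were used as deposited. The 64 control probe sets were left out of the tests. Genes were named from the platform annotation (34945 probe sets with 1 gene, 932 with several, 9160 with none), and 34741 matched GRCm38.p6 by gene ID.

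Knockout was compared with wild type in limma 3.58.1 (R 4.3.3; lmFit, eBayes, genotype only) over all 17228 tested probe sets, with Benjamini-Hochberg adjustment and 0.05 as the threshold, on 2 residual and 1.73 prior degrees of freedom. SE is limma's moderated standard error, intervals are 95% on it, and SD is over 2 arrays. The number of arrays limits the precision, and an exact permutation test of 2 against 2 arrays cannot go below p = 0.333. Where a gene has several probe sets, the one with the highest mean stands for it in counts by gene. On simulated data with the spread of these 17228 probe sets, this comparison called 0% of changes of 1 log2 unit and 12.4% of changes of 2 at the adjusted threshold, and 75.4% and 90.8% at the unadjusted one. At the unadjusted one it also called 6% of unchanged probe sets. The simulated arrays all had the same spread and none stood apart as wild-type array 1 did, so these shares need not hold here.

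The genes and gene lists were chosen with earlier results of these data known. Named are all 10 genes and, per list, up to 3 genes with an unadjusted p under 0.05, otherwise the 1 with the smallest p, and the 3 genes most like Mc2r and Mrap. Cell type markers given by name, and the genes of the last part, were chosen after their values were seen. Alternatives were the filter, the normalization, the variance model, the probe set type and choice, a replicate block and leaving out each array.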

Additional observations from a re-analysis of the deposited data

How the results depend on the processing

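The probe sets of the 10 genes gave 0 calls at the adjusted threshold under every alternative run. Their count at an unadjusted p under 0.05 in limma was 1 on all arrays. It was 2 with a trended, robust variance. With plain probe sets only it was 0, a setting that leaves out the called Prkaca probe set, 1450519_a_at, before the fit. Like the count over all probe sets, it rose without wild-type array 2 and fell without knockout array 1 or 2. Over all probe sets that count, 885, was 1545 without a filter and 169 to 6507 leaving out each array (the highest without wild-type array 2), and the adjusted count, 0, was 2 with the filter at 6 units, with centred arrays and with plain probe sets only. The median of the 10 genes, -0.07, was -0.05 with centred arrays, -0.12 with the mean or the most variable probe set of a gene, and -0.05 to 0.19 leaving out each array. That of the other pathway genes, -0.01, lay between -0.19 and 0.07 leaving out each array. Such a fit assumes that the lone array of a genotype varies as the other pair does.

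Leaving out an array turned the difference of 8 of the 18 tested probe sets of the 10 genes. Without wild-type array 1 these were Gnas 1450186_s_at (0.13), Adcy6 (0.18), Adcy9 1418586_at (0.23), Prkacb (0.19) and Pde8a (0.14; 0.00 without knockout array 1). Mc2r (0.14) and Adcy9 1449620_s_at (-0.09) turned without wild-type array 2, and Gnas 1427789_s_at (0.07) without knockout array 2. Over their 4 settings the ranges were -0.32 to 0.14 for Mc2r, -0.57 to 0.13 and -1.46 to 0.07 for Gnas, -0.52 to 0.18 for Adcy6, -0.47 to 0.23 and -0.09 to 0.35 for Adcy9, -0.50 to 0.19 for Prkacb and -0.25 to 0.14 for Pde8a. No other alternative turned a sign among the 18. The median of the other cyclases, -0.17, was 0.14 with the filter at 6 units. Without a filter on low values the Prkaca probe set had an unadjusted p of 0.0524 and Prkar1a 1452032_at 0.0138 in limma. Sphkap had 0.0531 without a filter and 0.0515 with a trended, robust variance in limma.

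Same-numbered arrays share only a number in the labels. Their deviations from the group means correlated at 0.154 across probe sets, and with the replicate number as a block 684 probe sets had an unadjusted p under 0.05, 0 an adjusted one, and 1 of the 18 an unadjusted one. Under the block the unadjusted p in limma was 0.00594 for Gnai1 and 0.00267 for Pde10a, which lay above 0.05 without it, and 0.0503 for Pkig and 0.0862 for Sphkap, which lay below; the adjusted p was 0.797 for each.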

Other observations

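Some genes that respond quickly to cyclic AMP differed more within wild type than between genotypes. Nr4a1, an early response gene of the cortex, read 13.10 and 11.11 on the wild-type pair against 11.56 and 12.12 on the knockout arrays. Per1, a clock gene with a cyclic AMP response element, read 8.31 and 5.45 in wild type against 6.75 and 7.18 in the knockout. Crem, which gives rise to the early repressor ICER, read 10.64 and 8.91 in wild type against 9.50 and 10.07 in the knockout, and Fos read 10.83 and 8.63 against 7.78 and 9.58. On each of the 4 genes wild-type array 1 was the highest, and on each knockout array 2 lay above knockout array 1. Over all tested probe sets wild-type array 1 was either the highest or the lowest on 73.9%. The share on which it was the highest is not given here. The median gap over all tested probe sets was 0.44 within wild type and 0.15 within the knockout. A gap wider in wild type than in the knockout was thus not particular to these genes. Their own wild-type gaps were larger than that median, at 1.99 for Nr4a1, 2.86 for Per1, 1.73 for Crem and 2.20 for Fos. The differences between genotypes were -0.27, 0.08, 0.01 and -1.05.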
